A study of Mus musculus with 8 samples.

Results

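The genes described here encode the tracks and motors of transport inside cells, namely kinesins, cytoplasmic dynein and its cofactor dynactin, tubulins, microtubule-associated proteins and myosins. They were taken by symbol from both count tables of a study of mouse brain. A gene entered if its symbol began with Kif or Myo and a digit, with Kifc, Klc, Dync, Dynl, Dctn, Tuba, Tubb, Tubg or Mapre, or if it was Map1a, Map1b, Map1s, Map2, Map4 or Mapt. Of 10060 genes listed in either table, 73 met this rule, which uses no measured value. They were 23 kinesin motors, 2 kinesin light chains, the kinesin binding protein Kif1bp, 8 dynein chains, 5 dynactin subunits, 8 tubulins, 4 gamma-tubulin complex proteins, 5 structural microtubule-associated proteins, 3 end-binding proteins and 14 myosins. Symbols of 72 genes were current in the RefSeq annotation, and Kif1bp matched as a synonym. There, 18 of the 73 overlap another coding gene, among them Dctn2 and Kif5a with each other, and their counts are uncertain because it is not given here how reads were assigned to strands.

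The mutant group was 5 mice with the Cstf2D50A genotype and its control 3 wild-type littermates, all untreated, aged 50 days and kept on a C57BL/6NCrl background. Cstf2 encodes the cleavage stimulation factor subunit that binds pre-mRNA downstream of polyadenylation sites, and D50A puts alanine for aspartate at residue 50, in its RNA recognition motif. The animals came from a congenic colony that had been backcrossed and then bred within itself. The labels do not give their sex, a batch, or how many copies of the D50A allele a mutant carried. Total brain RNA went into 3′ end libraries, primed on the poly(A) tail, in which each read marks a transcript end. The counts carry no base of Cstf2, so the genotype labels could not be checked against them.

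Microtubules are built from alpha- and beta-tubulin and are nucleated by gamma-tubulin complexes. Kinesins mostly walk towards the plus end of a microtubule and dynein towards the minus end, so that in axons kinesins carry vesicles, mitochondria and RNA outwards and dynein carries cargo back to the cell body. Tau and the other structural microtubule-associated proteins bind along the lattice, end-binding proteins track the growing tip, and myosins move on actin, for example in dendritic spines. Many neuronal genes end their mRNAs at more than a single polyadenylation site, which leaves the protein unchanged when both sites lie in the last exon and can change its carboxyl end when a site lies in an upstream exon.

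Both kinds of site choice were measured. The first table counted reads of proximal and distal sites within the 3′-most exon and held 66 of the 73 genes among its 7951 pairs. The second set an upstream exon against the 3′-most exon and held 51 among its 6147 pairs. Both listed 44 of them, and in each of these 44, library by library, the 3′-most exon had no fewer reads than both sites of the first table together, so the tables share reads. All 66 genes passed the filter, a mean of at least 20 reads per library for both sites together and at least 10 reads at each site over all libraries, and 50 of 51 did in the other table. The exception was Kif18a, a mitotic kinesin, with 65 reads over all 8 libraries. The distal share below is the percentage of a gene's proximal plus distal reads that lay at the distal site, and the 3′-most exon share is defined in the same way. A log2 change of usage is that of the ratio of distal to proximal (or 3′-most to upstream) reads, mutant over wild type, from edgeR's quasi-likelihood test with the library as a block. Levels are given as log2 CPM, the log2 of the reads at both sites together after TMM scaling to a common library size; values in CPM for a single site are on the same scale without the logarithm. Adjusted p-values are Benjamini-Hochberg values over all pairs of a table. Spreads are SD over n = 5 mutants and n = 3 wild types.

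Mutant libraries held 10177902 to 13449054 reads in the first table and wild types 9616953 to 17530761, and in the second table mutants held 7768925 to 10279635 and wild types 7075383 to 13145966. The 66 genes took 3.11 to 3.34% of the reads in mutants, and 2.58, 3.11 and 3.11% in wild types 1, 2 and 3. The libraries differed in brain region markers. Of 43 markers of cerebellar granule and Purkinje cells, 27 were measured and none was at 0. Their summed level was 2391 to 2589 CPM in mutants 1 to 4 and 5496 CPM in mutant 5, against 5251 to 6117 CPM in the wild types, so mutant 5 lay among the wild types. Markers of cortex and hippocampus neurons, 14 of 17 measured and none at 0, summed to 11784 to 14915 CPM in mutants and 7505 to 14466 CPM in wild types. Although these sums overlap, 13 of the 14 had a log2 change of level above 0, with a median of 0.52, against 0.01 over all pairs. At an unadjusted edgeR p under 0.05, 4 were higher in mutants (28.6%) and 0 lower, against 7.29% and 7.05% of all pairs. DESeq2 called 1 of them. The part of these markers in the results below was not tested beyond a fit that added the mean cerebellar marker level as a covariate. That level was 5.44 to 5.54 log2 CPM in mutants 1 to 4, 6.54 in mutant 5 and 6.44 to 6.67 in wild types. The genotype term of that fit therefore rests mainly on mutant 5 against the wild types, and it cannot separate genotype from marker level in mutants 1 to 4. In whole-tissue RNA, fewer cells of a type and less RNA per cell cannot be told apart.

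No gene of the 73 passed an adjusted p of 0.05 in site usage or level, by edgeR or by DESeq2. In usage within the 3′-most exon edgeR called 0 of all 7876 pairs tested (0%) and DESeq2 21 (0.267%). The lowest adjusted p among the 66 genes was 0.380 by edgeR and 0.250 by DESeq2, and limma-voom called none of them either. At an unadjusted edgeR p under 0.05, 5 genes had relatively more distal reads in mutants and 0 had fewer, against 8.67% and 4.25% of all pairs. They included Kif1b, Kif5b, Dync1i2 and Myo1c, and the 5 make 7.58% of the 66, which is near the background. Leaving out a library moved both counts. Without mutant 5 there were 14 higher genes (21.2%) and 3 lower, against 18.7% and 8.97% of all pairs in that fit, and without wild type 3 there were 12 (18.2%) and 4, against 15.9% and 8.48% of all pairs. Without wild type 2 there were 0 of either kind, against 2.53% and 1.27% of all pairs. Without mutant 2, mutant 3 or wild type 1 there were 2 higher genes (3.03%), against 4.66%, 6.79% and 3.65% of all pairs. The log2 change was above 0 in 41 of 66 genes (62.1%), against 59.2% of all pairs, with a median of 0.13 for the genes and 0.12 for all pairs. Genotypes did not overlap in 2 genes, with Mapre3 higher and Tubb5 lower in mutants. Among all pairs 2.53% were higher without overlap and 1.63% lower.

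In the choice between upstream and 3′-most exon edgeR likewise called 0 of 6001 pairs (0%) and DESeq2 called 5 (0.0833%), none of them in the group. Kif1a was the sole gene of 50 with an unadjusted edgeR p under 0.05 and the sole gene without overlap, higher in mutants in both respects. Of all pairs 10.4% were higher and 3.63% lower at that p, and 4.23% were higher and 1.65% lower without overlap. Without mutant 5 there were 5 higher genes at that p (10%), against 17.5% of all pairs in that fit. Without wild type 3 there were 4 higher (8%) and 2 lower (4%), against 16.0% and 5.70% of all pairs, and without wild type 2 there were 2 higher (4%), against 5.36%. The log2 change was above 0 in 35 of 50 genes (70%), against 62.2% of all pairs, and its median was 0.24 in the genes and 0.17 in all pairs. The plot of usage by class shows how widely the genes of each class scattered around these medians.

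**Figure D1:**
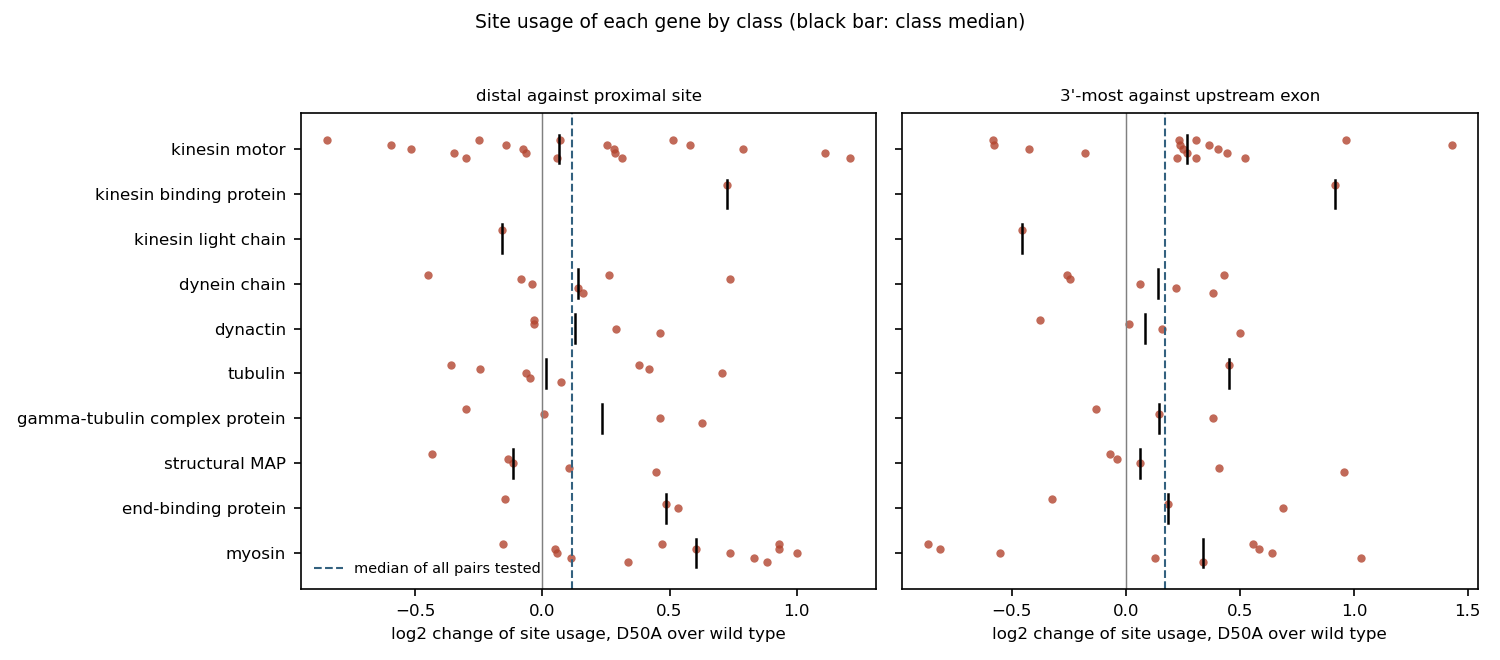
Log2 change of site usage (horizontal axis, D50A over wild type, no unit) for each gene, by class, for distal against proximal site (left, 66 genes) and 3′-most against upstream exon (right, 50 genes). Black bars are class medians and the dashed line the median of all pairs tested, 0.12 on the left and 0.17 on the right; on the left 12 of 13 myosins lie above 0, while kinesin motors spread from -0.85 to 1.21.

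Kif1a, the kinesin that carries synaptic vesicle precursors along axons, had the lowest p of the group in either table. Its 3′-most exon share was 99.36, 99.21, 99.15, 98.27 and 97.62% in mutants 1 to 5, against 96.11, 97.26 and 97.22% in wild types 1 to 3. Every mutant lay above every wild type, with mutant 5 closest to them, and the largest 95% Wilson interval of a library spanned 1.55 percentage points. The share averaged 98.72 ± 0.75% in mutants and 96.86 ± 0.65% in wild type (log2 change 1.43 with a standard error of 0.39, adjusted p = 0.282, DESeq2 adjusted p = 0.245). Reads in the upstream exon, 3.74, 4.60, 5.71, 10.1 and 17.6 CPM in mutants 1 to 5, against 14.0, 18.3 and 14.6 CPM in wild types 1 to 3, were few in mutants 1 to 3 and in mutant 5 reached the wild-type range. Reads in the 3′-most exon, 579, 578, 664, 572 and 720 CPM in mutants 1 to 5, against 345, 648 and 511 CPM in wild types 1 to 3, overlapped between the genotypes. Without mutant 5 the adjusted p was 0.0213, the single call on a gene of the group under any alternative, and over all alternatives it ran from 0.0213 to 1.00. In the fit without mutant 5, 236 of all 6007 pairs were called. All mutants there had low cerebellar markers and all wild types high ones, so genotype and marker level cannot be told apart in it. In the fit of all libraries with that marker level as a covariate the log2 change of Kif1a was 0.37, a value that rests mainly on mutant 5 against the wild types. Within its last exon Kif1a had a distal share of 96.1 ± 0.622% in mutants and 95.2 ± 1.15% in wild type, a log2 change of 0.28.

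**Figure D2:**
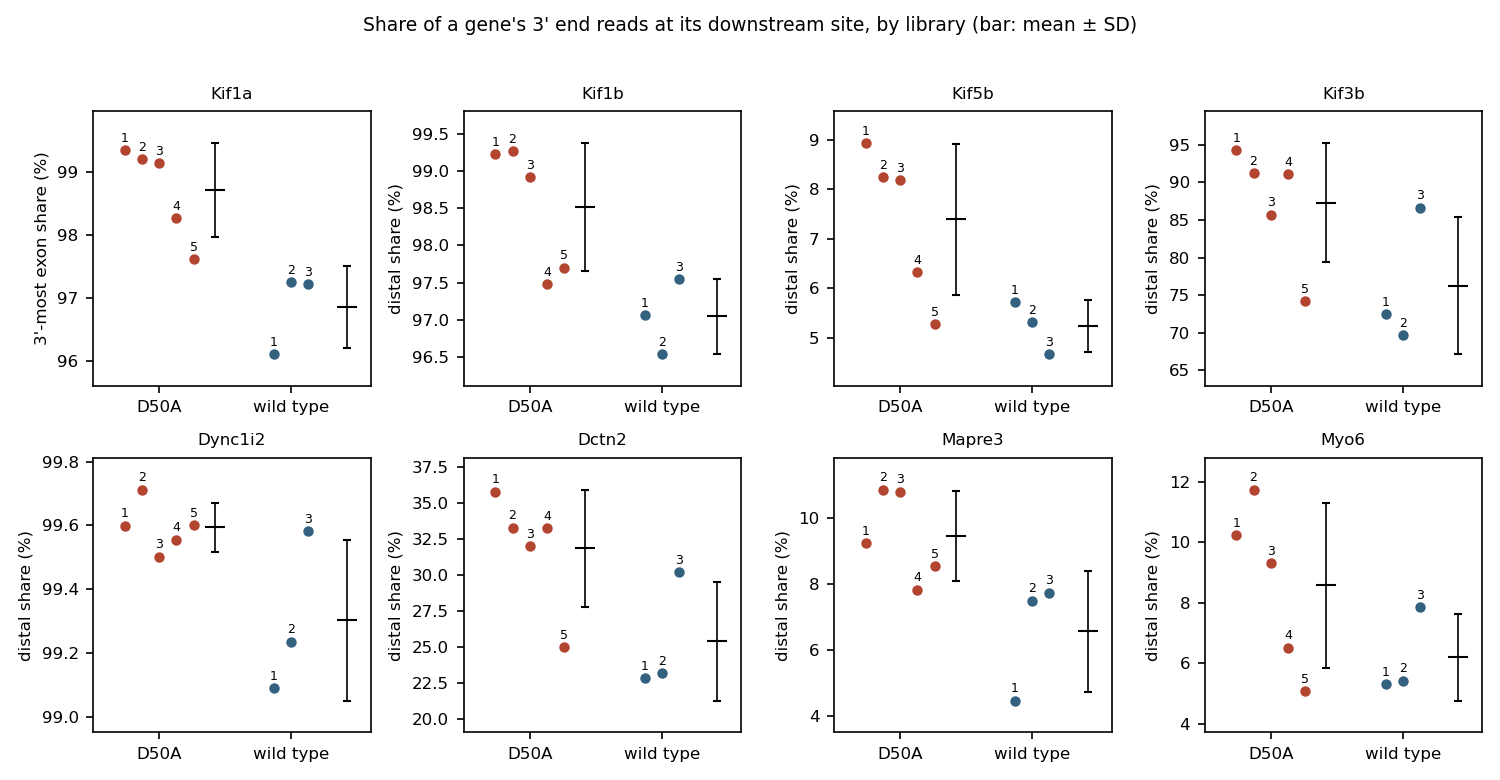
Share (vertical axis, %) of reads at the 3′-most exon (Kif1a) or at the distal site (other panels) in each library, numbered as in the text, with mean and SD beside each genotype. Kif1a and Mapre3 have no overlap between D50A and wild type, and in Kif3b and Dctn2 mutant 5 lies among the wild types while wild type 3 lies near the mutants. Vertical axes do not start at 0.

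Kif1b, the close relative of Kif1a that carries mitochondria and synaptic vesicle precursors, ends at sites 4393 bases apart. Its distal share was 99.22, 99.26, 98.91, 97.47 and 97.70% in mutants 1 to 5, against 97.06, 96.54 and 97.55% in wild types 1 to 3. All mutants but mutant 4, which lay just below wild type 3, exceeded all wild types (log2 change 1.11 with a standard error of 0.42, adjusted p = 0.380). The proximal site held 1.89, 1.69, 2.63, 5.97 and 5.47 CPM in mutants 1 to 5, against 5.93, 8.01 and 5.57 CPM in wild types 1 to 3. So the libraries with the lowest proximal reads were mutants 1, 2 and 3, while distal reads ran from 228 to 240 CPM in mutants and from 196 to 223 CPM in wild types. In the exon table Kif1b had 97.08 ± 0.40% in mutants and 96.51 ± 0.42% in wild type, with a log2 change of 0.27.

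The Kif5 genes encode the heavy chains of conventional kinesin, the main anterograde motor of axons. Kif5b used its distal site, 209 bases beyond the proximal, for 8.93, 8.24, 8.18, 6.33 and 5.28% in mutants 1 to 5, against 5.73, 5.32 and 4.67% in wild types 1 to 3. Mutants 1 to 4 exceeded all wild types and mutant 5 did not (log2 change 0.51 with a standard error of 0.22, adjusted p = 0.380). Kif5a kept 99.24 ± 0.11% in mutants and 99.34 ± 0.22% in wild type at its distal site and Kif5c 99.77 ± 0.15% in mutants and 99.71 ± 0.15% in wild type, with log2 changes of -0.25 and 0.58 and overlap of the genotypes in each. Kif5c was more divided between exons, and its 3′-most exon share was 88.4, 85.1, 77.4, 87.4 and 70.2% in mutants 1 to 5, against 72.0, 73.2 and 84.0% in wild types 1 to 3. Mutants 1, 2 and 4 were highest, mutant 3 lay in the wild-type range and mutant 5 below it (log2 change 0.52 with a standard error of 0.38, adjusted p = 0.535). Upstream reads of Kif5c varied little, at 143 to 175 CPM in mutants and 155 to 176 CPM in wild types. Reads of its 3′-most exon, 1127, 904, 568, 991 and 412 CPM in mutants 1 to 5, against 400, 483 and 838 CPM in wild types 1 to 3, varied far more within both genotypes. Its level from the same reads was 9.85 ± 0.47 log2 CPM in mutants and 9.48 ± 0.43 log2 CPM in wild type (adjusted p = 0.441).

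Kif3a and Kif3b are partners in the heterotrimeric kinesin that serves cilia and axons, and their log2 changes of usage had opposite signs. Kif3b, with sites 2482 bases apart, had a distal share of 94.3, 91.3, 85.7, 91.1 and 74.2% in mutants 1 to 5, against 72.5, 69.6 and 86.6% in wild types 1 to 3. It was high in mutants 1 to 4 and in wild type 3 and low in mutant 5 and wild types 1 and 2, so the genotypes overlapped (log2 change 1.21 with a standard error of 0.55, adjusted p = 0.386), for a mean difference of 11.1 points. Its distal site held 65.8, 56.3, 37.2, 64.4 and 21.7 CPM in mutants 1 to 5, against 16.2, 16.9 and 45.6 CPM in wild types 1 to 3, and its proximal site 3.96 to 7.53 CPM in mutants and 6.15 to 7.35 CPM in wild types. The level of Kif3b therefore followed its distal reads, at 6.12, 5.95, 5.44, 6.14 and 4.87 log2 CPM in mutants 1 to 5, against 4.49, 4.60 and 5.72 log2 CPM in wild types 1 to 3 (log2 change 0.73, adjusted p = 0.347). With the cerebellar marker level as a covariate both log2 changes of Kif3b changed sign, to -0.01 for usage and -0.02 for level. These values rest mainly on mutant 5 against the wild types. Kif3a had 44.3 ± 4.1% in mutants and 53.3 ± 10.1% in wild type at its distal site (log2 change -0.52 with a standard error of 0.28, adjusted p = 0.423), and no difference between the changes of Kif3a and Kif3b was tested.

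**Figure D3:**
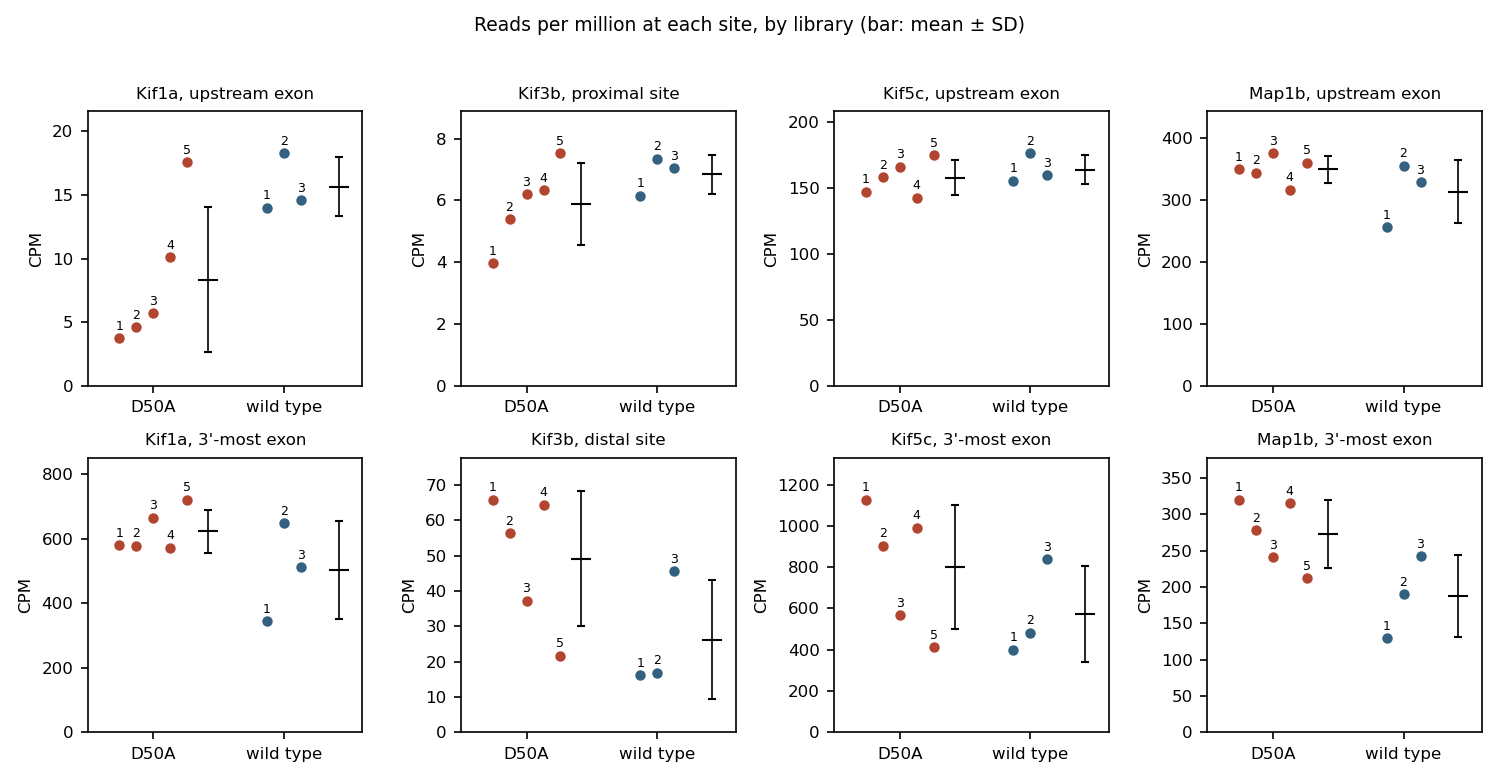
CPM (vertical axis from 0) at the upstream or proximal site (top) and at the 3′-most exon or distal site (bottom) of Kif1a, Kif3b, Kif5c and Map1b, by library, with mean and SD. For Kif1a mutants 1 to 4 lie below all wild types at the upstream exon and mutant 5, at 17.6 CPM, does not, and for Kif3b, Kif5c and Map1b the libraries spread mainly at the downstream site.

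Among the remaining kinesins Kif13a, an endosome motor, had a 3′-most exon share of 95.6, 92.8, 92.6, 92.5 and 79.2% in mutants 1 to 5, against 74.1, 85.3 and 90.7% in wild types 1 to 3. Mutant 5 stood far below the other mutants and wild type 3 above the other wild types (log2 change 0.96 with a standard error of 0.50, adjusted p = 0.395), and with the marker covariate the log2 change was -0.45. Kif2a, a microtubule depolymerase, had a distal share of 90.6, 90.7, 94.1, 89.3 and 95.9% in mutants 1 to 5, against 98.9, 96.3 and 90.6% in wild types 1 to 3. Its wild type 3 matched mutants 1 and 2, and the log2 change was -0.85 (standard error 0.57, adjusted p = 0.477). The other tested kinesin motors had log2 changes of usage between -0.60 and 0.79 within the last exon, where 11 of all 20 motors were above 0. Kifc2, a minus-end directed neuronal kinesin, had 99.51 ± 0.19% in mutants and 99.69 ± 0.083% in wild type at its distal site, and the dendritic kinesin Kif17 9.92 ± 3.68% in mutants and 9.5 ± 1.97% in wild type. Kif26b averaged 52.8 ± 5.19% in mutants and 46.4 ± 4.74% in wild type in the 3′-most exon, Kif13b 53.2 ± 5.91% in mutants and 47.5 ± 10.8% in wild type, and the ciliary kinesin Kif9, at 102 reads per library, 15.0 ± 5.76% in mutants and 20.8 ± 1.65% in wild type. In none of these did the genotypes separate. Kinesin light chains couple the heavy chains to cargo. Klc2 had 98.63 ± 0.38% in mutants and 99.01 ± 0.13% in wild type in its 3′-most exon, and Klc3, at 36 reads per library, had 50.9 ± 9.31% in mutants and 54.2 ± 4.32% in wild type at its distal site. Kif1bp, which binds kinesins and is not a motor, is named here after its values were seen. It had log2 changes of 0.72 within the last exon and 0.92 between exons (adjusted p = 0.476 and 0.378).

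Cytoplasmic dynein is built on the heavy chain Dync1h1, with intermediate, light intermediate and light chains that link it to dynactin and cargo. Dync1i2, an intermediate chain, had a distal share of 99.60, 99.71, 99.50, 99.56 and 99.60% in mutants 1 to 5, against 99.09, 99.23 and 99.58% in wild types 1 to 3. All libraries but wild types 1 and 2 lay between 99.50 and 99.71%, so the genotypes overlapped through wild type 3 (log2 change 0.74 with a standard error of 0.29, adjusted p = 0.380). The difference rests on a proximal site with 1.04, 0.724, 1.51, 1.21 and 1.17 CPM in mutants 1 to 5, against 2.46, 1.97 and 1.15 CPM in wild types 1 to 3. Dync1i1, the neuronal intermediate chain, stayed at 99.87 ± 0.049% in mutants and 99.86 ± 0.042% in wild type. The light intermediate chain Dync1li2 had a log2 change of the other sign, at 98.39 ± 0.35% in mutants and 98.82 ± 0.25% in wild type (log2 change -0.45 with a standard error of 0.23, adjusted p = 0.407). Dync1h1 ended almost always at the proximal of its close-set sites, with a distal share of 2.37 ± 0.479% in mutants and 1.95 ± 0.104% in wild type. The light chains Dynll1, Dynll2 and Dynlt3 averaged 80.9, 90.2 and 91.3% distal in mutants and 81.4, 89.2 and 91.7% in wild type, differences smaller than their SD over wild types. In all, 4 of 7 dynein chains had a log2 change above 0, with a median of 0.14.

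Dctn2 encodes dynamitin, the subunit whose excess breaks dynactin apart. Its distal share was 35.79, 33.29, 31.98, 33.25 and 24.96% in mutants 1 to 5, against 22.83, 23.15 and 30.17% in wild types 1 to 3. Mutants 1 to 4 were above every wild type, mutant 5 lay between wild types 2 and 3, and the genotypes overlapped (log2 change 0.46 with a standard error of 0.21, adjusted p = 0.386). Distal reads ran from 119 to 142 CPM in mutants and from 103 to 133 CPM in wild types, while proximal reads were 226, 239, 303, 262 and 417 CPM in mutants 1 to 5, against 349, 443 and 294 CPM in wild types 1 to 3. The libraries thus differed more at the proximal site than at the distal. Dctn4, a subunit of the pointed-end complex, had 12.3 ± 0.864% in mutants and 12.5 ± 0.543% in wild type and showed no difference beyond its spread (log2 change -0.03). Dctn1, the large subunit that holds dynein and microtubules, was listed only by exon, at 114 reads per library and 84.4 ± 4.23% in mutants and 82.9 ± 7.99% in wild type. Of 4 dynactin genes tested in each table, 2 had a log2 change above 0 within the last exon and 3 between exons.

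Several tubulins, the building blocks of microtubules, used a single site almost alone. Tuba1a, Tuba1b and Tubb2a gave 99.56% or more of their reads to the distal site in every library, and Tubb5 gave 0.504 to 0.783% to its own. For Tubb5 the sites lie 29 bases apart, and the distal share was 0.579, 0.504, 0.716, 0.688 and 0.719% in mutants 1 to 5, against 0.754, 0.783 and 0.726% in wild types 1 to 3. Every mutant lay below every wild type, and the intervals of single libraries were up to 0.35 points wide (log2 change -0.24 with a standard error of 0.17, adjusted p = 0.479). Tuba4a, which overlaps Stk16, was near an even split, at 44.1 ± 1.89% in mutants and 45.2 ± 1.82% in wild type (log2 change -0.06). Tubb2b had 30.7 ± 6.86% in mutants and 36.9 ± 3.5% in wild type at 83 reads per library. Of 8 tubulins 4 had a log2 change above 0, and their median was 0.01. Close tubulin paralogs can share reads, so the split of reads between them is uncertain. Of the gamma-tubulin complex proteins, Tubgcp2 had a distal share of 64.2, 65.3, 65.4, 57.9 and 48.8% in mutants 1 to 5, against 57.5, 46.7 and 45.3% in wild types 1 to 3, with mutants 1 to 4 above all wild types and mutant 5 within them (log2 change 0.63 with a standard error of 0.30, adjusted p = 0.394). Tubgcp4 averaged 13.1 ± 3.38% in mutants and 9.74 ± 0.6% in wild type (log2 change 0.46 with a standard error of 0.29, adjusted p = 0.460).

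The structural microtubule-associated proteins differed widely in the site they used, and in none did the genotypes separate in usage. Map2, the dendritic lattice protein, ended at its distal site, 2626 bases beyond the proximal, in 99.91 ± 0.014% in mutants and 99.91 ± 0.0097% in wild type. Mapt, which encodes tau, ended at the proximal of sites 31 bases apart, with a distal share of 1.2 ± 0.152% in mutants and 1.29 ± 0.107% in wild type. Map1a had 6.33 ± 0.729% in mutants and 7.07 ± 1.86% in wild type and Map4 54.7 ± 7.07% in mutants and 61.9 ± 8.53% in wild type, with log2 changes of -0.14 and -0.43 and overlap in both. Map1b, a protein of growing and remodelling axons, divided its reads between exons, and its 3′-most exon share was 47.8, 44.8, 39.1, 49.9 and 37.1% in mutants 1 to 5, against 33.6, 34.8 and 42.4% in wild types 1 to 3. Mutants 1, 2 and 4 were above all wild types and mutants 3 and 5 were not (log2 change 0.41 with a standard error of 0.25, adjusted p = 0.456). Upstream reads of Map1b ran from 316 to 375 CPM in mutants and from 256 to 355 CPM in wild types, and 3′-most exon reads were 320, 278, 241, 315 and 212 CPM in mutants 1 to 5, against 130, 190 and 242 CPM in wild types 1 to 3.

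End-binding proteins recruit other factors to growing microtubule tips. Mapre3, the form most typical of neurons, has sites only 44 bases apart. Its distal share was 9.23, 10.9, 10.8, 7.82 and 8.54% in mutants 1 to 5, against 4.47, 7.50 and 7.74% in wild types 1 to 3. Every mutant exceeded every wild type, but mutant 4 only just exceeded wild type 3, and single-library intervals reached 5.31 points (log2 change 0.53 with a standard error of 0.26, adjusted p = 0.399). The distal site of Mapre3 held 4.06, 5.31, 4.77, 3.55 and 4.57 CPM in mutants 1 to 5, against 1.23, 3.70 and 3.19 CPM in wild types 1 to 3, and the proximal site overlapped between genotypes at 39.5 to 49.0 CPM in mutants and 26.3 to 45.7 CPM in wild types. Mapre2 had 84.6, 84.8, 84.4, 76.9 and 77.8% in mutants 1 to 5, against 80.6, 72.5 and 75.8% in wild types 1 to 3 at its distal site, 1488 bases beyond the proximal. Mutants 1 to 3 were above all wild types, and mutants 4 and 5 lay within them (log2 change 0.49 with a standard error of 0.25, adjusted p = 0.408). Mapre1, with sites 4955 bases apart, had 17.0 ± 1.92% in mutants and 18.6 ± 2.77% in wild type (log2 change -0.15).

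Among myosins 12 of 13 log2 changes of usage within the last exon were above 0, with a median of 0.60, against 59.2% above 0 and a median of 0.12 over all pairs. None was called by edgeR or by DESeq2. Myo16, named here after its values were seen, was the exception at -0.15. In the choice between exons 6 of 9 myosins were above 0, with a median of 0.34. Myo1c, which links membranes to cortical actin and is named here after its values were seen, had 41.9, 38.8, 31.0, 22.5 and 22.0% in mutants 1 to 5, against 22.6, 21.3 and 15.3% in wild types 1 to 3. Mutants 1 to 3 were highest, and mutants 4 and 5 lay just below wild type 1 (log2 change 0.88 with a standard error of 0.38, adjusted p = 0.380).

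Among the cargo-carrying myosins of neurons, Myo6, the minus-end directed motor of endocytosis, had a distal share of 10.2, 11.7, 9.31, 6.52 and 5.09% in mutants 1 to 5, against 5.32, 5.43 and 7.87% in wild types 1 to 3. Mutants 1 to 3 were above all wild types and mutants 4 and 5 within or below them (log2 change 0.47 with a standard error of 0.31, adjusted p = 0.467). Myo5a, which brings endoplasmic reticulum into Purkinje cell spines, had 66.3 ± 6.79% in mutants and 64.7 ± 6.66% in wild type at sites 5206 bases apart, with a log2 change of 0.11. Myo9a had 93.1 ± 2.05% in mutants and 93.0 ± 0.561% in wild type, Myo10 93.8 ± 2.24% in mutants and 91.2 ± 0.716% in wild type, Myo7a 51.7 ± 1.78% in mutants and 50.5 ± 3.43% in wild type and Myo18a 2.39 ± 0.918% in mutants and 1.43 ± 1.38% in wild type. Their log2 changes were 0.06, 0.60, 0.05 and 0.93 and their genotypes overlapped.

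Levels of the group were also without calls. edgeR called 0 of 7876 pairs (0%) on proximal plus distal reads and 0 of 6001 (0%) on upstream plus 3′-most exon reads, and DESeq2 called 26 (0.33%) and 0 (0%), none of them in the group. At an unadjusted edgeR p under 0.05, Mapre2 and Map1b were higher and Tuba8 was lower in mutants in the first table, and Mapre2 was higher in the second. Over all pairs 7.29% were higher and 7.05% lower at that p in the first table, and 7.6% higher and 7.47% lower in the second, so in the fit of all libraries the group's shares of 3.03% and 1.52%, and of 2% and 0%, lay below the background. Without wild type 3 the first table gave 14 higher genes (21.2%) and 5 lower (7.58%), against 18.4% and 14.5% of all pairs in that fit, and the second gave 10 (20%) and 3 (6%), against 17.9% and 14.7%. Without mutant 5 the first table gave 10 (15.2%) and 5 (7.58%), against 15.2% and 13.6% of all pairs, and the second 8 (16%) and 5 (10%), against 15.5% and 14.0%. Without wild type 2 there were 5 higher genes in each table (7.69% and 10%), against 3.45% and 4.17% of all pairs. In the same fits 0 and 1 were lower (0% and 2%), against 5.88% and 5.44%. Leaving out any of the other libraries gave 1 or 2 higher genes in the first table, 1 in the second, and 0 lower in each. Over all pairs these fits gave 2.78 to 6.21% higher and 1.56 to 5.46% lower in the first table. In the second they gave 3.58 to 7.15% higher and 1.91 to 4.95% lower. Log2 changes of level were above 0 in 42 of 66 genes (63.6%), against 50.8% of all pairs, and in 31 of 50 (62%), against 50.6%. Their medians were 0.10 and 0.09, against 0.01 for all pairs of each table. Without wild type 1, the library in which the group took the smallest share of reads, the medians of the group were 0.02 in each table.

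Mapre2 had a level of 8.06, 7.95, 7.85, 7.90 and 7.92 log2 CPM in mutants 1 to 5, against 7.41, 7.48 and 7.79 log2 CPM in wild types 1 to 3. Every mutant exceeded every wild type, with mutant 3 only just above wild type 3 (log2 change 0.36 with a standard error of 0.12, adjusted p = 0.343, DESeq2 adjusted p = 0.201). The second table gave Mapre2 a log2 change of 0.35, again without overlap (adjusted p = 0.327). Mapre1, the ubiquitous member of the family, lay the other way at 8.20, 8.35, 8.48, 8.41 and 8.86 log2 CPM in mutants 1 to 5, against 9.09, 8.81 and 8.57 log2 CPM in wild types 1 to 3. Mutant 5 stood within the wild-type range and mutants 1 to 4 below it (log2 change -0.36, adjusted p = 0.345), and with the marker covariate the log2 change was -0.01. Mapre3 averaged 5.56 ± 0.12 log2 CPM in mutants and 5.26 ± 0.43 log2 CPM in wild type.

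**Figure D4:**
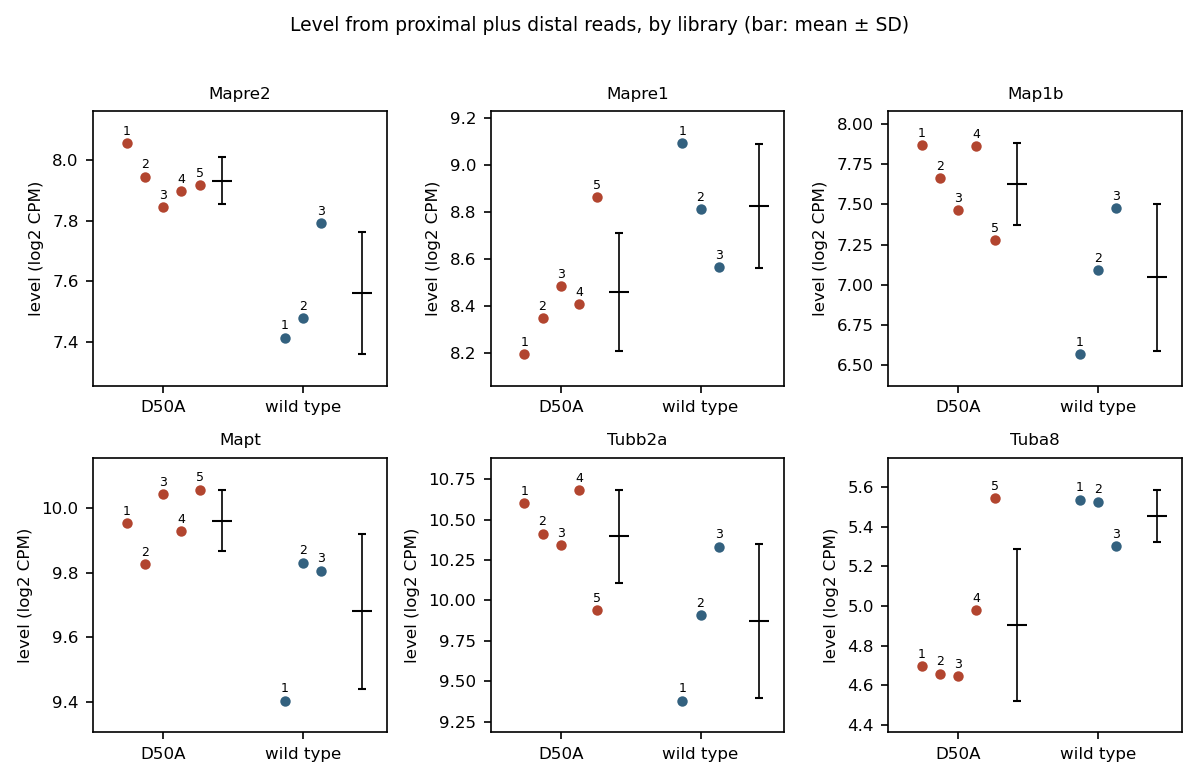
Level (vertical axis, log2 CPM of proximal plus distal reads) of 6 genes in each library, with mean and SD beside each genotype; axes do not start at 0. Mapre2 is higher in every D50A library than in every wild type, and in Mapre1 and Tuba8 mutant 5 lies at the level of the wild types.

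All 5 structural microtubule-associated proteins had a log2 change of level above 0 in the first table, with a median of 0.24, and 4 of 5 in the second. Map1b had 7.87, 7.66, 7.46, 7.86 and 7.28 log2 CPM in mutants 1 to 5, against 6.57, 7.09 and 7.48 log2 CPM in wild types 1 to 3. Mutants 1, 2 and 4 were above all wild types, mutant 3 lay level with wild type 3, and mutant 5 lay below it (log2 change 0.55 with a standard error of 0.22, adjusted p = 0.343). In the second table all mutants of Map1b exceeded all wild types, at 9.39, 9.28, 9.27, 9.30 and 9.16 log2 CPM in mutants 1 to 5, against 8.59, 9.09 and 9.16 log2 CPM in wild types 1 to 3, with mutant 5 and wild type 3 nearly equal (adjusted p = 0.334). Mapt had 9.95, 9.83, 10.04, 9.93 and 10.06 log2 CPM in mutants 1 to 5, against 9.40, 9.83 and 9.81 log2 CPM in wild types 1 to 3. Wild type 1 was lowest and the other wild types lay at the bottom of the mutant range, and in the second table, where the genotypes did not overlap, the log2 change was 0.27 (adjusted p = 0.344). Map2 averaged 11.35 ± 0.16 log2 CPM in mutants and 11.20 ± 0.02 log2 CPM in wild type, Map1a 7.92 ± 0.24 log2 CPM in mutants and 7.61 ± 0.63 log2 CPM in wild type and Map4 7.43 ± 0.14 log2 CPM in mutants and 7.40 ± 0.30 log2 CPM in wild type, each with overlap. Genotypes without overlap were otherwise found in the first table for Kif16b, higher in mutants at 21 reads per library (log2 change 0.60, adjusted p = 0.343). In the second table Kif16b overlapped. There Kif21a was lower in mutants without overlap, at 3.69, 3.87, 3.98, 3.92 and 3.92 log2 CPM in mutants 1 to 5, against 4.14, 4.07 and 4.14 log2 CPM in wild types 1 to 3 (log2 change -0.24, adjusted p = 0.354). In the first table Kif21a overlapped (log2 change -0.14, adjusted p = 0.764). Genes without overlap made up 2.45% (higher) and 2.31% (lower) of all pairs in the first table, and 2.28% and 2.5% in the second. The group had 2 and 0, and 3 and 1.

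Of the tubulins, Tubb2a had 10.60, 10.41, 10.34, 10.68 and 9.94 log2 CPM in mutants 1 to 5, against 9.38, 9.91 and 10.33 log2 CPM in wild types 1 to 3. Mutants 1 to 4 and wild type 3 were high, and mutant 5 lay with wild type 2 (log2 change 0.49 with a standard error of 0.23, adjusted p = 0.343). Tuba8, an alpha-tubulin named here after its values were seen, had 4.69, 4.66, 4.65, 4.98 and 5.54 log2 CPM in mutants 1 to 5, against 5.54, 5.53 and 5.30 log2 CPM in wild types 1 to 3. Mutant 5 matched the wild types and mutants 1 to 4 lay below them (log2 change -0.51 with a standard error of 0.21, adjusted p = 0.343), and with the marker covariate the log2 change was 0.06. Tuba1a, Tuba4a and Tubb5 had log2 changes of level of 0.14, -0.05 and 0.08, with overlap in each. Of the motor genes, Kif1a averaged 8.83 ± 0.15 log2 CPM in mutants and 8.45 ± 0.46 log2 CPM in wild type (adjusted p = 0.371), Kif5a 10.33 ± 0.05 log2 CPM in mutants and 10.34 ± 0.18 log2 CPM in wild type and Dync1h1 10.66 ± 0.22 log2 CPM in mutants and 10.38 ± 0.38 log2 CPM in wild type (adjusted p = 0.458). Dync1li2, Dynll2, Dctn4 and Myo6 had log2 changes of -0.28, -0.23, -0.26 and -0.28, with adjusted p from 0.347 to 0.393.

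Related genes outside the symbol rule were counted from 5 lists of 158 genes, which hold tubulin-modifying enzymes, severing and plus-end factors, other microtubule-associated proteins and tau kinases, cofactors and adaptors of dynein and kinesin, and myosin partners; Kif1bp is on the list of cofactors too. None of the 106 listed genes tested within the last exon and none of the 88 tested between exons was called by edgeR or DESeq2, for usage or for level. At an unadjusted edgeR p under 0.05 the lists held 12 genes with more (11.3%) and 2 with fewer (1.89%) distal reads in mutants, against 8.67% and 4.25% of all pairs. They held 10 with more (11.4%) and 5 with fewer (5.68%) 3′-most exon reads, against 10.4% and 3.63% of all pairs. For level they held 14 higher (13.2%) and 1 lower (0.943%) in the first table, against 7.29% and 7.05% of all pairs, and 11 higher (12.5%) and 1 lower (1.14%) in the second, against 7.6% and 7.47%. Log2 changes of usage within the last exon were above 0 in 6 of 13 tubulin-modifying genes (median -0.09), 15 of 28 severing and plus-end factors (0.12) and 15 of 23 other microtubule-associated proteins and tau kinases (0.15). They were above 0 in 23 of 30 cofactors and adaptors (0.27) and 6 of 12 myosin partners (-0.03), against 59.2% of all pairs, whose median was 0.12. Between exons, 5 of 23 severing and plus-end factors were higher at an unadjusted edgeR p under 0.05 (21.7%) and 0 lower. All pairs gave 10.4% and 3.63%. Of other microtubule-associated proteins and tau kinases 2 of 15 were higher (13.3%) and 1 lower (6.67%). Of myosin partners 1 of 11 was higher (9.09%) and 0 lower, and of 17 tubulin-modifying genes 0 were higher or lower. Genes are named below from the list of cofactors alone, and the other lists are given by counts only.

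In usage within the last exon, the genes with the lowest unadjusted p on the list of cofactors, chosen for these values, were Spag9, a scaffold that links kinesin light chains to cargo and signalling kinases, and Arl8a, a small GTPase that recruits kinesin to lysosomes. Spag9 had a distal share of 92.6 ± 2.88% in mutants and 83.2 ± 6.77% in wild type (log2 change 1.32 with a standard error of 0.38, adjusted p = 0.380), and a 3′-most exon share of 98.2 ± 0.925% in mutants and 95.2 ± 2.5% in wild type (log2 change 1.48 with a standard error of 0.45, adjusted p = 0.282). Only the exon share of Spag9 separated the genotypes. Arl8a had a distal share of 98.95 ± 0.23% in mutants and 98.21 ± 0.13% in wild type (log2 change 0.81 with a standard error of 0.24, adjusted p = 0.380), and every mutant exceeded every wild type. Bicd2, a dynein adaptor, had 5.38 ± 1.29% in mutants and 2.62 ± 1.19% in wild type (log2 change 1.14 with a standard error of 0.36, adjusted p = 0.380), and Pafah1b1, the dynein regulator also known as Lis1, had 36.7 ± 8.06% in mutants and 25.4 ± 7.59% in wild type (log2 change 0.78 with a standard error of 0.33, adjusted p = 0.380), with overlap in both. Ccdc88a was higher, at 46.8 ± 17.2% in mutants and 18.9 ± 9.51% in wild type, and Snw1 lower, at 87.8 ± 4.11% in mutants and 93.7 ± 3.61% in wild type, at an unadjusted p under 0.05, again with overlap (adjusted p = 0.380 for each). The place of Snw1 on a list of motor cofactors is doubtful. Of the 30 genes tested, 5 were higher at that p (16.7%) and 1 lower (3.33%), against 8.67% and 4.25% of all pairs. Between exons 2 of 22 cofactors tested were higher at that p (9.09%), Spag9 and Trak1, against 10.4% of all pairs. Another 4 were lower (18.2%), Sybu, Rab11fip3, Clstn1 and Ccdc88a, against 3.63%. Without overlap 3 were higher, Spag9, Trak1 and Fez1, and 1 was lower, Sybu, against 4.23% and 1.65% of all pairs. Fez1 had a 3′-most exon share of 92.1 ± 0.716% in mutants and 89.1 ± 2.06% in wild type (adjusted p = 0.364). Trak1, which ties kinesin and dynein to mitochondria, had a 3′-most exon share of 70.8 ± 1.93% in mutants and 63.8 ± 2.52% in wild type (log2 change 0.46 with a standard error of 0.21, adjusted p = 0.351) without overlap. Sybu, a kinesin adaptor of axons, lay the other way without overlap, at 95.6 ± 1.59% in mutants and 98.4 ± 0.703% in wild type (log2 change -1.38 with a standard error of 0.49, adjusted p = 0.301). The 3′-most exon share of Rab11fip3 was 74.6 ± 10.1% in mutants and 87.6 ± 6.15% in wild type (log2 change -1.32), that of Clstn1 99.85 ± 0.047% in mutants and 99.92 ± 0.013% in wild type (log2 change -0.94) and that of Ccdc88a 69.6 ± 9.39% in mutants and 81.5 ± 9.05% in wild type (log2 change -0.98), each with overlap and with adjusted p from 0.301 to 0.350. In level, Nin of the same list had the lowest unadjusted p, in the second table, at 2.71 ± 0.54 log2 CPM in mutants and 1.39 ± 0.52 log2 CPM in wild type, with overlap and 49 reads per library (log2 change 1.34 with a standard error of 0.34, adjusted p = 0.327, DESeq2 adjusted p = 0.0792).

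Many genes of the group used a single site almost alone. The median distal share over the libraries was above 90% in 20 of 66 genes (30.3%) and in 20.1% of all pairs, and it was below 10% in 13 genes (19.7%) and in 17.8% of all pairs. An even use, from 30 to 70%, was found in 19 genes (28.8%) and in 28.1% of all pairs. In the second table the 3′-most exon took over 90% of the reads in 33 of 50 genes (66%) and in 61.7% of all pairs, and no gene of the group gave it less than 10%. The lowest distal shares were those of Tubb5, Mapt and Kif13a, and the highest those of Tuba1b, Map2 and Tubb2a. For a gene with nearly all reads at a single site, the log2 change rests on the few reads at the other.

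Proximal and distal sites of the 66 genes lay 25 to 8586 bases apart, with a median of 576, against 629 over all pairs. Of the 18 genes with sites at most 100 bases apart, 8 had a log2 change of usage above 0, with a median of -0.03. Over all pairs with sites that close, 67.6% were above 0, with a median of 0.18. Of the 16 genes with sites more than 2000 bases apart, 13 were above 0, with a median of 0.28, against 57.0% and 0.10 over all such pairs. At the distances between, split at 500 bases, 10 of 12 nearer genes were above 0, with a median of 0.44, against 56.6% and 0.10 over all such pairs. Of the farther genes 10 of 20 were above 0, with a median of -0.01, against 57.2% and 0.08. The medians of the group thus did not rise steadily with distance. Counts this small, in a group without calls, were not tested against those of all pairs.

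**Figure D5:**
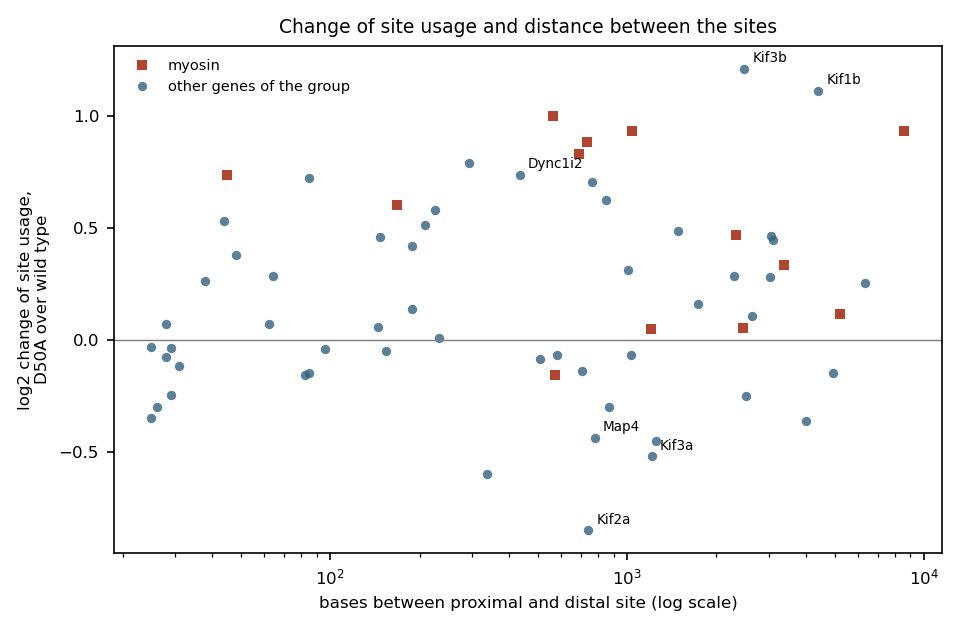
Distance between proximal and distal site (horizontal axis, bases, log scale) and log2 change of distal usage, D50A over wild type (vertical axis), for the 66 genes, with myosins marked apart from the other classes. Of 16 genes with sites over 2000 bases apart 13 lie above 0, and of 18 with sites at most 100 bases apart 8 do.

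In the first table mutant 5 among the mutants, and wild type 3 among the wild types, lay most often inside the range of the other genotype. Mutants were set against the range of 3 libraries and wild types against that of 5, so these counts compare libraries within a genotype only. Counts over all pairs are not given here. In usage within the last exon mutant 5 lay inside the range of the wild types in 43 of 66 genes, while mutants 1 to 4 did so in 21 to 30. Wild type 3 lay inside the range of the mutants in 50 genes, and wild types 1 and 2 in 33 and 36. Levels from the same reads gave 37 genes for mutant 5 and 27 to 36 for mutants 1 to 4, and 51 genes for wild type 3, against 24 and 39 for wild types 1 and 2. In the choice between exons mutant 3 did so most often among the mutants, in 33 of 50 genes, with 26 for mutant 5 and 19 to 23 for the others, and wild types 1 to 3 in 25, 30 and 37. Levels of the second table gave 32 genes for mutant 5 and 18 to 26 for mutants 1 to 4, and 38 for wild type 3, against 19 and 26 for wild types 1 and 2. Mutant 5 shared the high cerebellar marker level of the wild types, but wild type 3 did not have the low level of mutants 1 to 4. With that level as a covariate the median log2 change of usage was -0.01 within the last exon and 0.09 between exons, against 0.13 and 0.24 without it, while the medians of level were 0.08 and 0.06, against 0.10 and 0.09. The genotype term with the covariate rests mainly on mutant 5 against the wild types.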

How the data were processed

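The 3′ end libraries of total brain, 5 Cstf2D50A and 3 wild type, were compared. The deposited values are raw read counts, which per the file headers are given by library for a proximal and a distal site and for an upstream and the 3′-most exon. Positions come without a chromosome. FastQC 0.11.3, STAR 2.5, HTSeq 0.6.0 and build mm9 are named in the submitters' processing notes, and for site picking, strand assignment and removal of internal priming the method was not given in the sources used here. No value column was left unused (0 columns).

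Members and lists were chosen with earlier results of these data known. Pairs with a mean of at least 20 reads per library and at least 10 reads at each site over all libraries were fitted with edgeR 4.0.16 (R 4.3.3) by its quasi-likelihood test, with a library block and a site by genotype term for usage and TMM scaling for level, and p-values were adjusted by Benjamini-Hochberg over the table with a threshold of 0.05. The standard error is the log2 change divided by the square root of F. Alternatives were DESeq2 1.42.0, voom (limma 3.58.1), other filters and scalings, each library left out, and a cerebellar marker covariate. The code was tested on simulated data. Depth was 7075383 to 17530761 reads per table and library, and Wilson intervals at 95% cover counting error only, since no molecular identifiers are mentioned in the labels. Libraries carry separate sample names and were taken as separate animals, and no 2 of them held the same counts. Named are genes past the threshold, genes whose genotypes do not overlap (at most 6 per direction and result, at 50 or more reads), a list fixed by symbol, the 2 of each class with most reads, and the 3 highest, lowest and most even shares; Kif1bp, Myo1c, Myo16 and Tuba8 were added after their values were seen. The result of 1 gene that this rule names is not reported here.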

Additional observations from a re-analysis of the deposited data

Results flagged for a closer look

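Among the sets of 5 mutant values of the named genes, 7 (4.07%) held a library whose gap to its nearest neighbour was larger than Dixon's critical value of 0.71 of the range, which is no more than the about 1 of 20 sets that chance alone gives. Mutant 5 was the separate library in 4 of them. Kif13a had a 3′-most exon share of 79.2% in mutant 5 and 92.5 to 95.6% in the other mutants, and Dynll1, a dynein light chain, had 99.03% in mutant 5 and 99.62 to 99.77% in the others. The level of Myo10, the myosin of filopodia, was 2.26 log2 CPM in mutant 5 and 2.999 to 3.236 in the other mutants. Kif26b had a level of 5.64 log2 CPM in the second table in mutant 5 and 5.02 to 5.09 in the others. Mutant 2 stood apart in the 3′-most exon share of Dync1i1, at 99.72% against 99.87 to 99.90%, and of Myo18a, at 87.6% against 88.5 to 88.8%. Mutant 4 stood apart in the distal share of Mapre1, at 20.4% against 15.6 to 16.8%. The part of library quality or brain region in these values was not tested.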

How the results depend on the processing

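Of 347 recomputed values, over 25 results and 15 alternatives, 340 kept their direction and their side of the threshold. With the cerebellar marker level as a covariate 6 log2 changes that were not called changed sign: usage of Kif5b (-0.0022), Kif3b (-0.0092), Kif13a (-0.45) and Kif5c (-0.34), and level of Tuba8 (0.064) and Kif3b (-0.024). These 6 values rest mainly on mutant 5 against the wild types. The number of genes of the group called was 0 under all alternatives for usage within the last exon and for both levels. For usage between exons it was 0 to 1 over the fits that leave out a library, with Kif1a called without mutant 5. There 236 of all pairs were called, against 161 without wild type 3 and 0 with all libraries, and the levels gave 68 and 65 calls over all pairs without mutant 5; the cause was not tested. DESeq2 called 21 and 5 pairs for usage and 26 and 0 for level over each table. No paired analysis was possible because the labels give no number that links a mutant to a wild-type library. Depth limited genes such as Kifc5b (20 reads per library), Kif16b and Klc3.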
